A study of Mus musculus with 4 samples.

Results

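The 10 genes described here release calcium in muscle fibres and take it back up, and were followed through chimeric eCLIP-seq of the mouse plantaris. The genes were Ryr1, Cacna1s, Trdn, Jph1, Jph2, Casq1, Casq2, Atp2a1, Atp2a2 and Pvalb. In this assay Ago2, the protein that holds a miRNA on its target, is immunoprecipitated after UV crosslinking, and the miRNA is ligated to the RNA fragment beside it, so that each chimeric read names a miRNA and a place on a transcript. Members were all lines of both peak lists, a line being 1 peak with 1 miRNA, that overlapped the GRCm38 (mm10) RefSeq span of a listed gene on its own strand. They came to 1189 of 93468 lines in the control library and 1232 of 100897 in the mimic library, or 153 of 20754 and 150 of 21872 peaks. The 10 genes were among 8062 genes with a line in either library.

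Both libraries came from plantaris of adult male C57BL/6J mice, 5 months of age, after 10 days of mechanical overload (MOV). In MOV, part of the gastrocnemius and soleus, the synergist muscles, is removed surgically so that the plantaris carries more load. The group MOV_Control had received a control lentivirus in the left plantaris and MOV_Mimic a lentivirus with a miR-1 mimic in the right plantaris. Virus and body side therefore cannot be told apart. Whether both muscles came from 1 mouse is not given in the sources used here. Both vectors carried a CMV promoter, which is active in many cell types, and a TurboGFP reporter, so expression need not be restricted to muscle fibres. The muscles are called control and mimic muscle below. There was 1 library per group and hence no replicate, no p-value and no test between conditions. The 2 input libraries were not analysed here.

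In skeletal muscle, an action potential is sensed by a calcium channel of the transverse tubule, which opens the ryanodine receptor of the sarcoplasmic reticulum, and the calcium released starts contraction. Calsequestrin holds calcium inside the reticulum, triadin and the junctophilins keep the release machinery and the membranes together, and SERCA pumps return calcium to the store while parvalbumin binds it in fast fibres. miR-1, miR-206 and the miR-133 miRNAs are abundant in muscle, and a miRNA usually finds its target by pairing through its seed.

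The mature miRNAs that led the reads of these genes and had a RefSeq entry (GRCm38.p6) are shown first, because the seed groups below rest on them. Capitals mark the seed, bases 2 to 8, and the sequences run 5′ to 3′. miR-1a-3p, miR-133a-3p, miR-378a-3p and miR-23b-3p are named only. miR-1a-3p was grouped with miR-206-3p as miRNAs of 1 seed, and miR-133a-3p with miR-133b-3p as miR-133. The names let-7, miR-23, miR-26, miR-27, miR-29 and miR-378 likewise stand for all members of a seed group.
miR-206-3p: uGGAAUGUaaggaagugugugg
miR-133b-3p: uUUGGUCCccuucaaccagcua
miR-22-3p: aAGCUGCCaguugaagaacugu
miR-23a-3p: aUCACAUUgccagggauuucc
miR-24-3p: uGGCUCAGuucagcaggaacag
miR-29b-3p: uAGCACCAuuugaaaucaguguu
let-7d-5p: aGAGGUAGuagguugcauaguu
miR-214-3p: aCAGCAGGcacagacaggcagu

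Stretches complementary to these seeds were searched on the sense strand of the longest protein-coding transcript of each gene in GENCODE M1, an annotation of mm9. They are given as descriptions of the transcripts and were not tied to peaks, because the peaks lie in GRCm38. The 7 letters searched were ACATTCC for miR-206-3p, GGACCAA for miR-133b-3p, GGCAGCT for miR-22-3p, AATGTGA for miR-23a-3p, CTGAGCC for miR-24-3p, TGGTGCT for miR-29b-3p, CTACCTC for let-7d-5p and CCTGCTG for miR-214-3p. miR-26a-5p, which led a Trdn site described below, is not among the miRNAs listed, although Trdn held 1 coding match to its seed. For the listed miRNAs, windows of 28 bases around matches in coding sequence follow, with the match in capitals. They are shown for genes whose reads were led by the same seed at a site described below.
Casq1 miR-29b-3p: actgctgtttgtacTGGTGCTagggacg
Casq1 miR-23a-3p: tggaccgtgtgatcAATGTGAacgccaa
Ryr1 miR-133b-3p: cttgggctcactgaGGACCAAggccttg
Cacna1s miR-206-3p: ggaaattctatgccACATTCCtcatcca
Cacna1s miR-133b-3p, first match: agcatgaagctcttGGACCAAgtcatcc
Cacna1s miR-133b-3p, second match: caacttcctggaaaGGACCAActctctg
Jph1 miR-24-3p: caaagaaagcaaaaCTGAGCCaaaagca
Atp2a1 let-7d-5p: aagcagttcatccgCTACCTCatctcct
Atp2a2 miR-214-3p, first match: ttggtgacaaagttCCTGCTGatattag
Atp2a2 miR-214-3p, second match: tccctgagggtctgCCTGCTGtcatcac

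The Casq1 matches began at coding positions 50 and 133, that of Ryr1 at 888, those of Cacna1s at 4576 for miR-206-3p and at 4518 and 4841 for miR-133b-3p, that of Jph1 at 1811, that of Atp2a1 at 2286 and those of Atp2a2 at 478 and 934. Over 22594 coding sequences, whose lengths differ, at least 1 match was held by 17.8% for the miR-29b-3p letters, 12.4% for miR-23a-3p, 11.7% for miR-133b-3p, 17.5% for miR-24-3p, 11.98% for let-7d-5p, 32.9% for miR-214-3p and 9.21% for miR-206-3p. The Atp2a1 transcript of 3477 nt held 0 matches to the letters of miR-206-3p, miR-133b-3p and miR-22-3p, and Pvalb, with 977 nt, held 0 for all 8. This says only that these letters were not in these transcripts.

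Depth differed by a ratio of 1.12, with 232408 and 259207 chimeric reads in the control and mimic libraries. Values are estimated counts with fractions. Only reads in called peaks are listed, so a value of 0 can mean that no peak was called, which the counting intervals do not cover. All intervals are 95% and cover counting error only, not the variation between animals, muscles or preparations, and reads amplified by PCR are not independent molecules. All 10 skeletal muscle fibre markers had lines in both libraries and took 17.2% of reads in control and 20.1% in mimic muscle. The 6 fibroblast markers took 2.76% and 2.31%, and of 4 heart muscle markers 0 had a line in control and 1 in mimic muscle, with 0.833 reads. Whether these shares contributed to the differences below was not tested. In tissue, fewer cells of a type and less RNA per cell cannot be told apart, and the amount of each transcript was not measured in these libraries.

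Chimeric reads were present on all 10 genes in both libraries and were concentrated on the SERCA pump gene Atp2a1. Together they held 2658 reads (2558 to 2761) in control and 3122 (3013 to 3233) in mimic muscle, or 1.14% and 1.205% of the libraries. The mimic-to-control ratio was 1.17 (1.115 to 1.24), and 1.05 (0.9997 to 1.11) after division by the library totals, an interval that held 1. The latter is called the depth-divided ratio from here on, and a ratio not so divided is to be read against the 1.12 of the libraries. Atp2a1 alone held 1243 and 1281 reads. Without it, a choice made after seeing the data, the other 9 genes held 1414 and 1841 reads, a ratio of 1.30 (1.21 to 1.40).

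**Figure D1:**
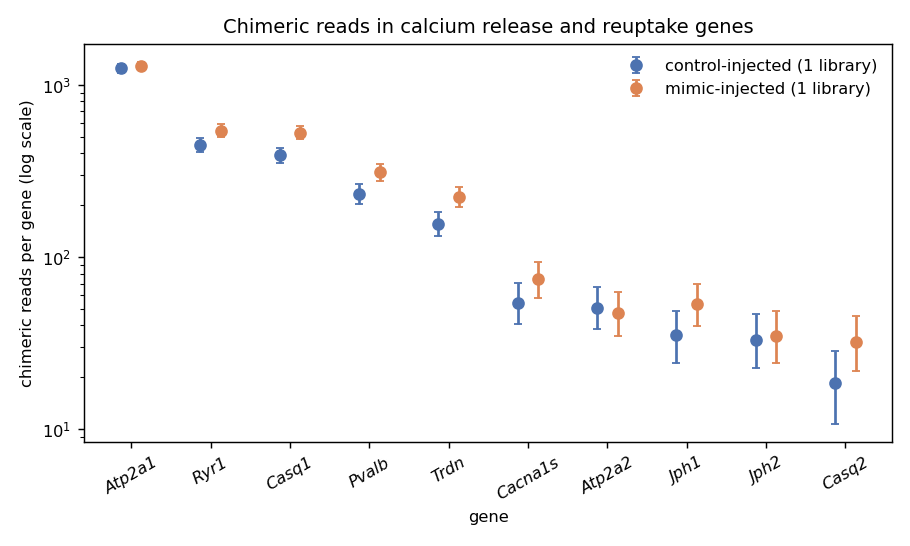
Chimeric reads of each gene in the control-injected (blue) and mimic-injected (orange) library, 1 library each, on a log axis, with exact Poisson intervals. Reads run from 18.4 for Casq2 in the control to 1281 for Atp2a1 in the mimic.

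Per length of the longest transcript the order was led by 3 genes. Atp2a1, which encodes the SERCA pump of fast fibres, had 358 reads per kb in control and 369 in mimic muscle. Parvalbumin (Pvalb) had 239 and 318 reads per kb, and Casq1, the fast-fibre calsequestrin, 209 and 281. Trdn followed with 34.3 and 49.1 reads per kb, Ryr1 with 28.9 and 35.2 and Jph1 with 16.1 and 24.4. The Jph1 transcript used had 2192 nt, with coding sequence up to 2177 and little after it, and a longer transcript would lower its value. Atp2a2, Cacna1s, Jph2 and Casq2 lay between 7.19 and 12.4 reads per kb in both libraries. Per kb, the counting intervals of Pvalb and Casq1 overlapped in both libraries, those of Atp2a1 and Pvalb overlapped in the mimic but not in the control, those of Trdn and Ryr1 overlapped in the control but not in the mimic, and those of the last 4 genes overlapped in both. Among all genes ranked by reads, Atp2a1 was 14th in control and 13th in mimic muscle.

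The depth-divided ratios of the 10 genes lay between 0.838 for Atp2a2 and 1.55 for Casq2, with a median of 1.202. Over 1183 genes with at least 50 reads in both libraries together the median was 0.942, and the 5th and 95th percentiles were 0.587 and 1.59. A gene was counted as past the fold at a depth-divided ratio of at least 1.5 or at most 1/1.5. Of all genes 6.85% were past it on the higher side and 10.5% on the lower side, and of the 10 genes 1 was higher, Casq2, and 0 lower. The counting interval of Casq2 ran from 0.868 to 3.02 and held 1. The interval lay above 1 for Trdn, Casq1 and Pvalb, below 1 for Atp2a1 (0.854 to 0.9998), and held 1 for the other 6 genes. Intervals were not counted in this way over all genes.

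**Figure D2:**
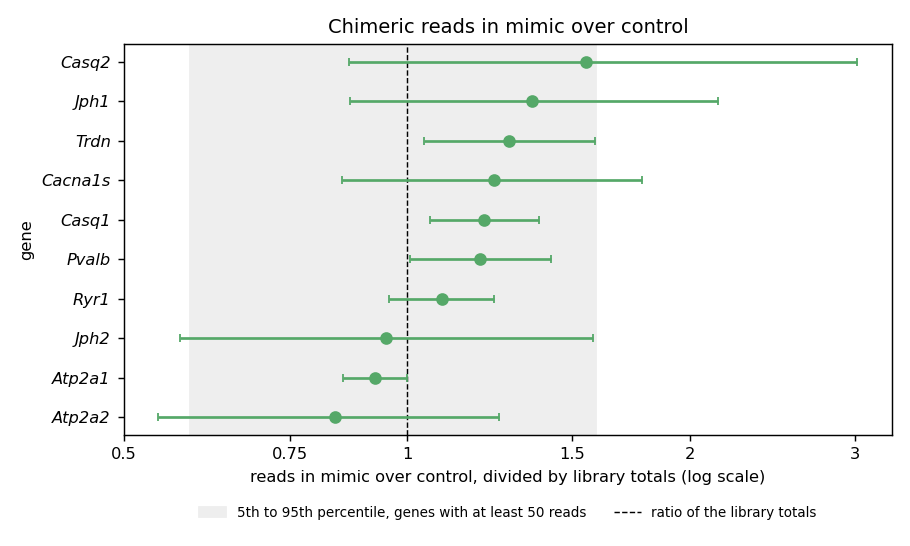
Depth-divided ratio of mimic to control reads for each gene, on a log axis, with exact conditional binomial intervals that cover counting error only. The grey band is the 5th to 95th percentile of 1183 genes with at least 50 reads (0.587 to 1.59), and the points of all 10 genes lie within it.

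The release channel and its voltage sensor were led by miR-133. Ryr1, the ryanodine receptor of skeletal muscle (chr7:29003340-29125179, minus strand), had 445 reads in control and 540 in mimic muscle, a ratio of 1.21 (1.07 to 1.38) and a depth-divided ratio of 1.09 (0.958 to 1.24). miR-133a-3p and miR-133b-3p together held 45.9% and 48.2% of its reads. miR-1a-3p held 39.6 and 41.8 reads and miR-206-3p 31.9 and 30.7, so neither differed beyond counting error. The reads of Ryr1 were spread over 55 sites, where a site is a group of peaks of both libraries within 50 nt of each other. The site with the most reads, chr7:29056923-29057017, took 8.003% and 11.6% of the reads of the gene. It held 35.6 and 62.8 reads, a ratio of 1.76 (1.14 to 2.71), with miR-133a-3p at 21.3 and 35.5 reads. A site at chr7:29034141-29034376 had 8.10 and 29.9 reads, of which miR-466i-5p supplied 7.17 and 20.1. At the next site, chr7:29034597-29034749, miR-466i-5p had 7.31 and 0 reads, and over all of Ryr1 it had 23.7 and 25.9, a ratio of 1.09 (0.598 to 1.97). miR-24-3p on Ryr1 had 9.37 reads in control and 26.6 in mimic muscle, a depth-divided ratio of 2.55 (1.23 to 6.50).

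Cacna1s, which encodes the pore and voltage sensor of the L-type channel in the transverse tubule (chr1:136052806-136119822, plus strand), had 53.7 and 74.0 reads, and the interval of its ratio held 1 (0.952 to 1.98). The miR-133 group held 70.2% of its reads in control and 58.7% in mimic muscle, the largest share of a single seed group on any of the 10 genes within each library. Its leading site, chr1:136115137-136115225, had 29.9 and 30.2 reads, 92.9% of them from miR-133. The transcript held 2 miR-133b-3p matches, and whether they lie under the site was not determined. Another site upstream of it, chr1:136113286-136113409, was led by miR-1a-3p and held 4.47 and 15.5 reads.

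Trdn, whose product triadin anchors calsequestrin to the release channel (chr10:33083483-33476709, plus strand), had 155 reads in control and 222 in mimic muscle, a ratio of 1.43 (1.16 to 1.77) and a depth-divided ratio of 1.29 (1.04 to 1.59). miR-1a-3p and miR-206-3p led it with 42.2 and 49.9 reads, followed by miR-133 with 26.0 and 34.9. miR-22-3p had 2.03 reads in control and 24.6 in mimic muscle, the largest depth-divided ratio among the 50 gene and miRNA pairs with at least 20 reads, at 10.9 (2.79 to 97.6). These reads came from more than 1 place, with 8.002 of the mimic reads at chr10:33139078-33139284 and 7.09 near the end of the gene. The site near the end, chr10:33475612-33475968, was the largest, with 20.8 and 47.5 reads, a ratio of 2.28 (1.31 to 3.94). miR-378 there had 3.11 and 9.28 reads. At the other end of the span, chr10:33083623-33083749 was led by miR-26a-5p and had 12.9 and 23.9 reads. Trdn had 48 sites in all, and the 3 largest took 39.1% of its reads.

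The junctophilins, which tie the reticulum to the transverse tubule, carried few reads. Jph1 (chr1:16942104-17097922, minus strand) had 35.2 reads in control and 53.4 in mimic muscle, and Jph2 (chr2:163336242-163398049, minus strand) had 32.9 and 34.9. Both ratio intervals held 1. On Jph1, miR-24-3p had 3 and 12.7 reads, with a depth-divided interval of 1.07 to 21.3. The miR-23 pair had 1 and 9.51 reads (1.28 to 389), and miR-133 had 10.8 and 6.06, with an interval that held 1 (0.149 to 1.44). The largest Jph1 site, chr1:17003907-17004087, was led by miR-24-3p, and the transcript held 1 miR-24-3p match. On Jph2, miR-133 had 7.69 and 10.4 reads and miR-1a-3p with miR-206-3p 4.95 and 10.9.

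The calsequestrins differed from each other in the miRNAs they carried. Casq1 (chr1:172209894-172219895, minus strand) had 391 reads in control and 527 in mimic muscle, a ratio of 1.35 (1.18 to 1.54). Its reads were divided among miR-29 with 79.1 and 122, miR-23 with 84.6 and 83.4, miR-133 with 69.4 and 88.7, and let-7 with 58.9 and 91.3. miR-1a-3p with miR-206-3p had 19.2 and 21.9 reads, or 4.90% and 4.16% of the gene. Almost all reads came from 2 places at opposite ends of the gene. The site centred 278 nt from the gene start, chr1:172219477-172219757, held 311 and 406 reads, and the site centred 334 nt from the gene end, chr1:172210165-172210291, held 56.6 and 121.

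At both Casq1 sites miR-29 was among the leading groups. Near the start, the miR-23 pair had 83.9 and 83.4 reads, miR-29 63.6 and 77.4, let-7 57.0 and 89.3 and miR-133 53.3 and 86.1. The miR-23 ratio was 0.994 (0.721 to 1.35), while the let-7 ratio was 1.57 (1.107 to 2.22), an interval that held the depth ratio, and the miR-133 ratio 1.62 (1.14 to 2.33). Near the end, miR-24-3p had 18.5 and 40.9 reads, a ratio of 2.22 (1.28 to 4.21), and miR-29 15.4 and 44.3, a ratio of 2.87 (1.601 to 5.67). The miR-29b-3p and miR-23a-3p matches of the Casq1 transcript lay at its positions 273 and 356, in the first part of the coding sequence. The site distance is along the gene and the match position along the transcript of another build, so whether they coincide was not determined.

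Casq2, the calsequestrin of heart and slow fibres (chr3:102086415-102146514, plus strand), had 18.4 reads in control and 31.9 in mimic muscle, a ratio of 1.73 (0.968 to 3.36). In contrast to Casq1, miR-1a-3p and miR-206-3p held 58.4% (35.7 to 82.7) and 46.9% (29.1 to 65.3) of its reads. Its leading line was miR-1a-3p at chr3:102119910-102119990, with 5.83 reads, against 10.8 for the overlapping mimic line.

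**Figure D3:**
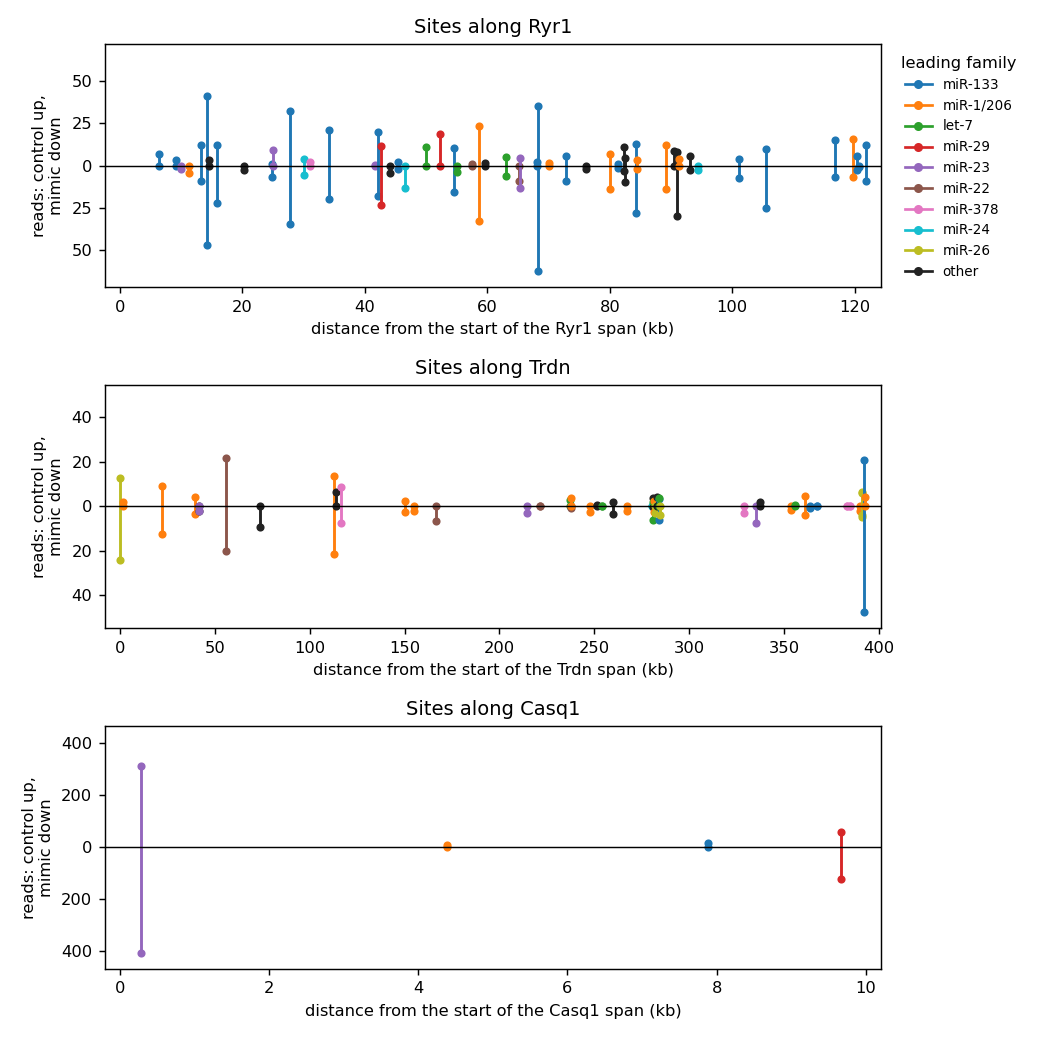
Reads of each site along Ryr1, Trdn and Casq1, plotted by distance in kb from the start of the gene span, control upward and mimic downward, coloured by the leading seed family. Ryr1 has many small sites, while Casq1 has 2 large ones, of 311 and 406 reads near its start and 56.6 and 121 near its end.

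Atp2a1 (chr7:126445858-126463103, minus strand) carried the most reads, and its sites differed between the libraries in both directions. It had 1243 reads in control and 1281 in mimic muscle, a ratio of 1.03 (0.952 to 1.12). Of its 12 sites, 11 were seen in both libraries. Of all 1016 sites of any gene with at least 50 reads, 14.2% were past the fold on the higher side and 11.1% on the lower side. Of the 19 such sites in the 10 genes 5 were higher and 3 lower, and 2 of the higher and all 3 lower ones were in Atp2a1, which had 9 such sites.

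The 2 largest Atp2a1 sites were led by miR-1a-3p and had fewer reads in the mimic. At chr7:126460695-126460783 there were 393 reads in control and 300.5 in mimic muscle, a ratio of 0.764 (0.655 to 0.889). miR-1a-3p accounted for 248 and 176 of them, a ratio of 0.710 (0.582 to 0.864), and miR-206-3p for 44.6 and 26.5, a ratio of 0.595 (0.358 to 0.988). All miRNAs but these 2 summed at this site to 101 and 98.2 reads, a ratio of 0.969 (0.727 to 1.29). At chr7:126453023-126453114 there were 267 and 183 reads, of which miR-1a-3p supplied 152 and 84.7, a ratio of 0.559 (0.424 to 0.734). All miRNAs but miR-1a-3p and miR-206-3p summed to 91.8 and 77.6 reads there, a ratio of 0.846 (0.619 to 1.16), with miR-133 at 53.7 and 57.9.

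A site near the start of Atp2a1 went the other way. At chr7:126462823-126462969 there were 62.6 reads in control and 227 in mimic muscle, a ratio of 3.63 (2.72 to 4.84). miR-133 led it with 46.3 and 123 reads, and miR-1a-3p had 0 reads in the control, with an upper limit of 3.69, and 30.5 in the mimic. The mimic list held a second peak here, chr7:126462932-126462969, with 56.9 reads, and the first mimic peak alone had 171 reads. A smaller site at chr7:126459661-126459716 had 12.4 and 71.0 reads, led by the miR-23 pair with 7.01 and 43.4. Its peaks were cut differently in the libraries, with 1 peak in control and 2 in mimic muscle.

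Toward the end of Atp2a1, sites of different seed families lay side by side. A miR-133 site at chr7:126448726-126448793 had 116 and 84.4 reads, with miR-133 at 74.3 and 37.3, a ratio of 0.502 (0.328 to 0.752). The next, at chr7:126448162-126448228, was a let-7 site of 64.3 and 100.2 reads, with let-7 at 45.5 and 74.3, a ratio of 1.63 (1.12 to 2.44). A miR-22-3p site at chr7:126447992-126448063 had 113 and 93.5 reads, and a further miR-133 site at chr7:126447384-126447478 had 123 and 153. The miR-133 reads of the last site were 95.8 and 101, so the 2 miR-133 sites of this stretch did not differ between libraries in the same way. A site at chr7:126450469-126450487 was seen in the control alone, with 25.6 reads spread over 33 miRNAs, and was the largest site of the 10 genes found in 1 library.

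**Figure D4:**
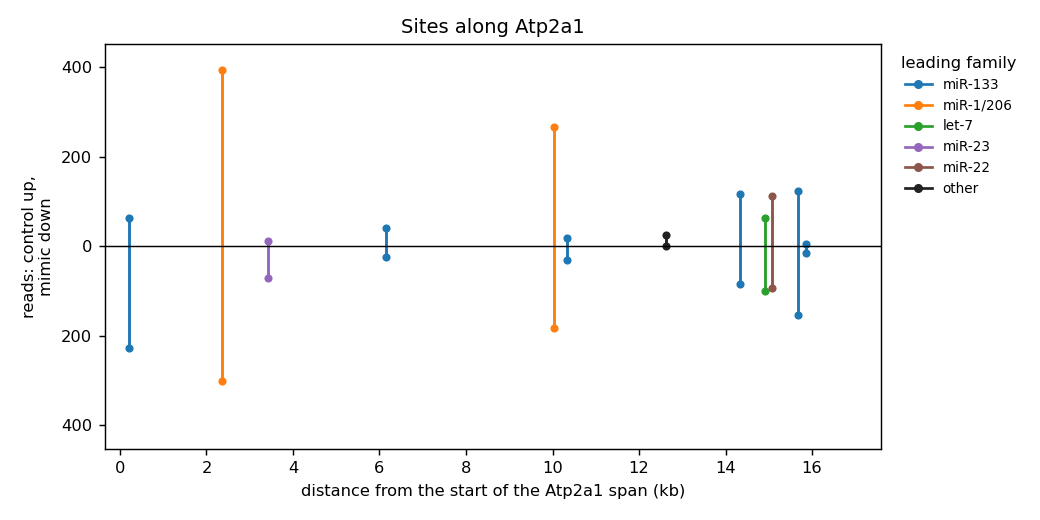
Reads of the 12 sites along Atp2a1 by distance in kb from the start of the gene span, control upward and mimic downward, coloured by leading seed family. The tallest lines are the miR-1a-3p sites of 393 and 300.5 reads and of 267 and 183 reads, and the miR-133 site near the start has 62.6 and 227.

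Atp2a2, the SERCA pump of slow fibres and heart (chr5:122453513-122502225, minus strand), had 50.6 reads in control and 47.3 in mimic muscle. Its leading miRNA was miR-214-3p, with 11.997 and 17.1 reads, or 23.7% and 36.2% of the gene. The leading site, chr5:122457039-122457117, had 12.2 and 13.4 reads, 95.7% of them miR-214-3p. miR-1a-3p had 3.82 reads in control and 0 in mimic muscle. The longest run of bases shared by the Atp2a1 and Atp2a2 transcripts was 44 nt, so reads of such runs could have been given to either gene.

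Parvalbumin (Pvalb, chr15:78191112-78206400, minus strand) had 233 reads in control and 311 in mimic muscle, a ratio of 1.33 (1.12 to 1.59). miR-133 led with 104 and 118 reads. miR-378a-3p had 16.8 and 50.5 reads, a depth-divided ratio of 2.702 (1.53 to 4.97). Nearly all of these lay in the larger of its sites, chr15:78202525-78202654, which had 137 and 207 reads. The second site, chr15:78201227-78201332, had 93.3 and 103 reads and was led by miR-133. Without the larger site the ratio of Pvalb was 1.08 (0.805 to 1.43).

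Across the 10 genes, miR-133 held 30.8% of reads in control and 31.3% in mimic muscle, miR-1a-3p with miR-206-3p 25.1% and 19.0%, and let-7 6.70% and 7.23%. In all other nuclear genes miR-133 held 26.7% and 28.3%, and miR-1a-3p with miR-206-3p 15.2% and 15.9%. miR-27, by contrast, held 1.68% and 1.65% here against 5.07% and 4.69% in the other genes. Of the remaining muscle miRNAs, miR-486 was listed under the name miR-486b-5p, with 21.0 and 35.8 reads on 7 of the genes and 0 lines under miR-486a-5p. It held 0.789% and 1.146% of reads here and 0.341% and 0.406% in the other genes. miR-208b-3p had 0 lines and miR-499-5p had 1 line. The methods include an amplification with a miR-1 primer, so shares describe these files rather than miRNA abundance.

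**Figure D5:**
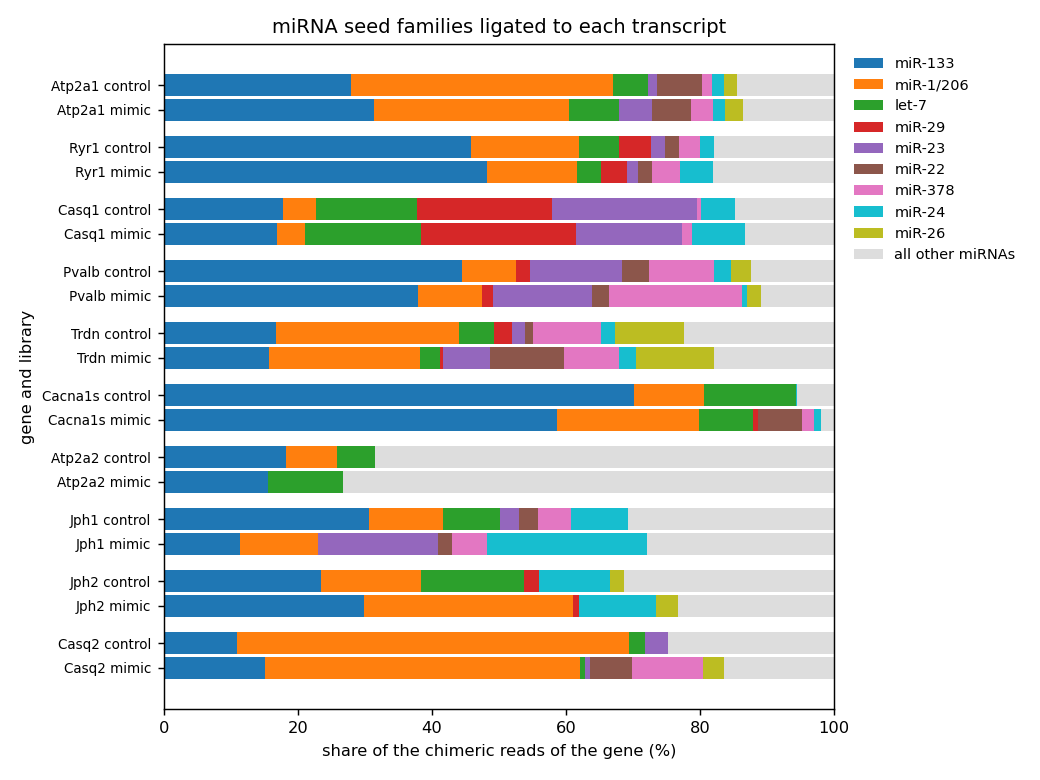
Share of the chimeric reads of each gene by seed family, in percent, with 1 bar per gene and library. miR-133 takes 45.9% and 48.2% of Ryr1 and 70.2% and 58.7% of Cacna1s, whereas miR-1 and miR-206 take 58.4% and 46.9% of Casq2.

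The mimic is of miR-1, so its reads were set beside those of other miRNAs. In the 10 genes miR-1a-3p had 524 reads (480 to 571) in control and 453 (412 to 497) in mimic muscle, a ratio of 0.866 (0.761 to 0.982). In the other nuclear genes it had 18238 and 24076 reads, a ratio of 1.32 (1.29 to 1.35). The miR-1a-3p share of reads was 19.7% (18.2 to 21.3) and 14.5% (13.3 to 15.8) in the 10 genes, against 9.21% and 10.9% in the other nuclear genes. On Atp2a1 alone miR-1a-3p had 415 and 308 reads, or 79.2% and 68.0% of the miR-1a-3p reads of the 10 genes. Without it, miR-1a-3p had 109 and 145 reads, a ratio of 1.33 (1.03 to 1.72), close to that of the other nuclear genes. In 8 of the 10 genes miR-1a-3p had more reads in the mimic before depth division, and the interval excluded 1 for Atp2a1 alone. Of these 8, Ryr1 had a depth-divided ratio below 1, at 0.945 (0.596 to 1.49). No such count was made over the other nuclear genes, whose summed ratio of 1.32 was itself above the depth ratio.

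The depth-divided ratio of miR-1a-3p on Atp2a1 was 0.666 (0.572 to 0.773). Over 111 nuclear genes with at least 50 miR-1a-3p reads the median was 1.149, and 10 of them lay below Atp2a1. miR-133a-3p on the same gene had 288 and 323 reads, a depth-divided ratio of 1.005 (0.855 to 1.18). miR-206-3p, of the same seed as miR-1a-3p, had 72.6 and 64.7 reads, and its interval held 1. Removing the largest Atp2a1 site brought the miR-1a-3p ratio of the 10 genes, not depth-divided, from 0.866 to 1.006 (0.850 to 1.19). That was still below the 1.32 of the other nuclear genes.

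Among the 50 pairs of a gene and a miRNA with at least 20 reads, 11 were past the fold on the higher side and 1 on the lower side, the miR-1a-3p reads of Atp2a1. Over the 2164 such pairs of all genes, 16.6% were higher and 17.6% lower. The 5 pairs with the largest ratios were miR-22-3p on Trdn, miR-23b-3p, miR-23a-3p and miR-378a-3p on Atp2a1, and miR-378a-3p on Pvalb. The Atp2a1 reads were 5.39 and 25.1 for miR-23b-3p, 10.5 and 38.7 for miR-23a-3p, and 11.2 and 33.3 for miR-378a-3p. After miR-1a-3p the lowest ratios belonged to miR-22-3p, miR-206-3p and let-7f-5p on Atp2a1 and miR-206-3p on Trdn, and the intervals of these 4 held 1. Depth-divided intervals lay above 1 for 7 pairs, below 1 for 1 and held 1 for 42. Intervals were not counted over the pairs of all genes, so these counts have no background.

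Summed over the 10 genes, miR-378a-3p had 52.3 reads in control and 129 in mimic muscle, a depth-divided ratio of 2.22 (1.6002 to 3.13), on 8 of the genes. Gene by gene, its interval lay above 1 on Atp2a1 (1.33 to 5.90) and Pvalb (1.53 to 4.97) alone. miR-24-3p had 66.0 and 117, a depth-divided ratio of 1.59 (1.17 to 2.18), on 9. Its interval lay above 1 on Ryr1 (1.23 to 6.50), Casq1 (1.08 to 3.39) and Jph1 (1.07 to 21.3) alone. On Atp2a1 and Pvalb its depth-divided ratio was 0.964 and 0.318, with intervals that held 1. The miR-24-3p share was 2.48% and 3.75% here, and 1.88% and 1.90% in the other nuclear genes. miR-133a-3p, with 679 and 825 reads on all 10 genes, had a depth-divided ratio of 1.09, and the interval held 1 (0.983 to 1.21). For miR-23a-3p the reads were 101 and 143, and for miR-22-3p 111 and 129. In the other nuclear genes the shares of miR-378a-3p were 2.36% and 2.73%, and here 1.97% and 4.14%.

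Lines with more reads more often had a counterpart in the other library, in these genes and in all others. Of the control lines in the 10 genes, 41.7% (38.9 to 44.6) overlapped a mimic line of the same miRNA by at least 1 nt, against 35.0% (34.7 to 35.3) of lines in other nuclear genes. The share was 29.6% for lines under 1 read, 46.3% from 1 to under 3, 87.3% from 3 to under 10, and 40 of 40 lines with 10 or more reads. In the other nuclear genes these shares were 22.9%, 38.5%, 80.0% and 97.3%. By gene it ran from 15.7% in Atp2a2 to 61.0% in Pvalb, with 52.4% in Atp2a1. Of 179 sites 88 were seen in both libraries, 48 only in control and 43 only in mimic muscle, so 50.8% were in 1 library, against 63.5% of 29177 sites of all nuclear genes. Sites of 1 library took 7.61% and 5.02% of the reads, in the same order.

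A list of 30 other genes of calcium handling, chosen by role but with earlier results of these data known, was set beside them. A line was present for 24 in control-injected muscle, for 25 in mimic-injected muscle and in neither for 4, namely Atp2a3, Ryr3, Jph3 and Jph4, paralogs of the genes above. Together they had 863 and 1027 reads, a ratio of 1.19. Srl, which encodes the reticulum protein sarcalumenin, had 150 and 238 reads, a depth-divided ratio of 1.42. Asph, whose locus includes junctin, had 166 and 168, and Calm2, which encodes the calcium sensor calmodulin, had 82.9 and 70.5. Cacna2d1, a subunit of the calcium channel, had 64.4 and 76.8. Of the 10 with at least 50 reads, 2 were past the fold on the higher side and 0 on the lower side. Over all 1183 genes with at least 50 reads these shares were 6.85% and 10.5%. Among the small regulators of SERCA, Sln had 20.9 and 19.8 reads, Mrln 12.4 and 0, and Pln 0 and 5.77.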

How the data were processed

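Chimeric eCLIP-seq was analysed for 1 MOV_Control and 1 MOV_Mimic library. The deposited values were estimated counts, the chimeric reads of 1 miRNA in 1 peak, which the authors did not scale to depth; most are fractions whose origin is not given in the sources used here. The submitters' processing notes name UMI-tools 1.1.1, cutadapt 3.2, STAR 2.7.7a, Bowtie 1.2.3, HOMER 4.11 and the mm10 build, while the methods name mm9 and CLIPper. Treatment of reads that fit several places is not given in the sources used here.

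Lines were assigned by overlap of at least 1 nt on the gene's strand with RefSeq spans (GRCm38.p6). The strand came from the promoter table for 7 genes and from GENCODE M1 by name for 3. Peaks within 50 nt were merged into sites, a distance chosen after seeing the data. Exons of GRCm38 were not used here. Of 659 miRNA names, 543 had a RefSeq sequence. A name without a sequence that was not assigned to a group by hand counted as a group of its own. For instance, miR-30b-5p was counted apart from miR-30a-5p.

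Intervals were exact Poisson for reads, exact conditional binomial for ratios and Clopper-Pearson for shares, on rounded reads. Python 3.11.15, pandas 2.3.3, NumPy 2.4.6 and SciPy 1.17.1 were used. Only the ratio intervals were checked on simulated data. Those data were independent Poisson counts, so the check does not reach fractional values, PCR copies or peak calling. All intervals cover counting error only. With 1 library per group no test was made. Depth was 232408 and 259207 reads. The members, gene lists and thresholds were chosen with earlier results of these data known. The text names all 10 genes, their leading lines, sites and miRNAs, the 5 highest and 5 lowest pair ratios, and the 5 partners with the most reads, of which 1 is not reported here. Alternatives were minimum reads per line, depth division, overlap rules and leaving out top sites.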

Additional observations from a re-analysis of the deposited data

How the results depend on the processing

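No paired analysis was possible because a single library stood for every group. Of 21 alternatives to the main results 9 stayed within counting error of the reported value. The ratio of all reads in the 10 genes was 1.17, and 1.05 (0.9997 to 1.11) after division by library totals and 1.30 without Atp2a1. The miR-1a-3p ratio of 0.866 turned to 1.006 without the largest Atp2a1 site and to 1.33 without Atp2a1. The share of control lines overlapped in the mimic was 41.7%. It was 54.0% for lines of at least 1 read, 72.8% for at least 3 reads and 33.1% with a reciprocal overlap of 50%. With any miRNA of the same seed group, as assigned here, it was 52.4%. The miR-1a-3p share of control reads, 19.7%, was 5.55% of lines, 24.7% of reads in lines of at least 3, 25.1% with miR-206-3p and 14.5% in the mimic. Of 30 alternatives to the gene ratios 25 stayed within the counting interval and 0 reversed a ratio whose interval excluded 1. With lines of at least 3 reads the ratio was 3.28 for Jph1 and 2.10 for Jph2, and without its largest site it was 1.154 for Atp2a1. Merging only peaks that overlap or abut gave 193 sites in place of 179. Depth limits Casq2, Jph1, Jph2, Atp2a2 and Cacna1s, the genes with the fewest reads.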

Other observations

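The mix of miRNAs on each gene was set beside that of 516 nuclear genes with at least 100 reads. Likeness was Pearson's r over the shares of 563 seed families in both libraries summed. Some of these families were single miRNAs without a sequence entry. The points share libraries and a few abundant families, so r is a description of likeness. Ryr1 and Cacna1s were alike (r = 0.983), and the genes closest to both were Mybpc2, Lmcd1 and Atp5b, with r from 0.984 to 0.990. Atp2a1 was closest to Cpe (0.983), Atp5a1 (0.982) and Vamp2 (0.972), and its median over all genes was 0.663. Casq2 was closest to Car3 (0.984), Mb (0.982) and Myl1 (0.979). Pvalb was closest to Eef1a2 (0.979). Trdn was closest to Pde4dip (0.946) and Jph2 to Myo18b (0.919). Casq1, Jph1 and Atp2a2 had no neighbour as close: the highest values were 0.835 with Col3a1, 0.869 with Cap2 and 0.817 with Rhob. Casq1 and Casq2 were among the least alike pairs of the 10 genes (r = 0.250). Casq2, Jph2, Jph1 and Atp2a2 themselves had fewer than 100 reads in both libraries together, so their r values are less certain.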
